A study of Mus musculus with 10 samples.

Results

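The genes described here are 9 regulators of mRNA decay and immediate early genes of mouse B cells: Zfp36, Zfp36l1, Zfp36l2, Zc3h12a, Rc3h1, Btg2, Ier2, Ier3 and Ier5. They and the gene lists below were chosen by name, with earlier results of these data known. Their counts of calls, set beside the shares of all genes, are therefore descriptive and no test of the lists. All 9 were found among the 17658 genes of the deposited expression table. The study measured mRNA by RNA sequencing in B cells from spleen and lymph node of C57BL/6 mice aged 10 weeks, obtained by magnetic removal of the other cells. One group carried both functional copies of Nr4a1 (Nr4a1+/+, wild type) and the other was Nr4a1-/- (knockout) in the labels, which name no cell type or promoter limiting the deletion. Cells either received no agent, or received anti-IgM at 10 µg/mL for 2 hours, which crosslinks and so triggers the B cell antigen receptor. The labels give no hours in culture for the unstimulated cells. For the changes with stimulation below, an effect of culture or handling was therefore not tested apart from that of anti-IgM. There was 1 unstimulated library per genotype, and there were 4 stimulated libraries per genotype, given the letters A to D. Nothing in the labels ties a letter to a mouse, so the p-values measure the spread between these libraries, which may be technical.

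An mRNA is usually destroyed after its poly(A) tail has been shortened, chiefly by the CCR4-NOT deadenylase complex. Zfp36 (tristetraprolin), Zfp36l1 and Zfp36l2 are zinc finger proteins that bind AU-rich elements in 3′ UTRs and bring that complex to the mRNA. Zc3h12a (Regnase-1) is an endonuclease and Rc3h1 (Roquin-1) an adaptor, and both act on stem-loops in the 3′ UTRs of inflammatory mRNAs. Btg2 belongs to the antiproliferative BTG/TOB proteins, which also contact the deadenylases. Ier2, Ier3 and Ier5 are immediate early genes, which are switched on by growth and stress signals without new protein synthesis, and several mRNAs of this class are themselves short-lived.

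The AU-rich elements bear on these genes directly, because the mRNAs of AU-binding proteins can carry such elements too. The heptamer TATTTAT was searched on the sense strand of the 3′ UTR of 1 GENCODE M21 transcript per gene, overlaps allowed. It was found in 6 of the 9 genes: 4 times in Ier3, 3 times each in Zfp36, Zfp36l1 and Zfp36l2, 2 times in Rc3h1 and once in Btg2, while the transcripts of Zc3h12a, Ier2 and Ier5 held none. Among 9011 tested genes with a 3′ UTR, 28.6% held at least 1 and 3.52% at least 3. The sites below show the heptamer in capitals with its flanks, 5′ to 3′, at base 575, 590 and 615 of the Zfp36 3′ UTR, base 1150 in Zfp36l1, base 822 in Zfp36l2, base 103 in Btg2 and base 182 in Ier3, counted from the first base after the stop codon.
Zfp36 site at 575: gggcccttTATTTATgacgactt
Zfp36 site at 590: gacgacttTATTTATtgtattaa
Zfp36 site at 615: ttttatagTATTTATatatattg
Zfp36l1 site at 1150: tcaaaacgTATTTATtgccaaac
Zfp36l2 site at 822: atttaactTATTTATtatcttgt
Btg2 site at 103: tgaagagcTATTTATacatgttt
Ier3 site at 182: ctaattaaTATTTATgtatttat

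A match is a description of the letters and does not show that a protein binds there. The first pair of Zfp36 sites lies so close together that their printed flanks overlap. The flank printed after the Ier3 site holds another of its heptamers, at base 190, left in lower case.

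Upstream sequence was available for 7 of the 9 genes in the RefSeq promoter table (GRCm38.p6, 250 bases before and 50 after the first base). Both strands were searched for a CArG box (the serum response factor motif), the cyclic AMP response element TGACGTCA, the AP-1 motif TGANTCA, the EGR motif GCGNGGGCG, an NF-kB motif and AAAGGTCA, the NBRE to which NR4A proteins bind as monomers. None of the 7 windows held the NBRE, which 1.51% of all 32851 windows held. The windows below hold the other matches, in capitals, on the strand of the gene. TGANTCA allows any base in the middle and is looser than the usual AP-1 site. The Zfp36l1 match has a T there. A CArG box is in 1.63% of all windows, TGACGTCA in 1.79%, TGANTCA in 7.81%, GCGNGGGCG in 5.55% and the NF-kB motif in 4.51%.
Zfp36 CArG box, chr7:28379267-28379296: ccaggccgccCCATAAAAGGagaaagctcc
Zfp36 EGR, chr7:28379315-28379343: gagctacgccGCGGGGGCGcgtcccggaa
Btg2 cyclic AMP response element, chr1:134079304-134079331: ttcccaataaTGACGTCAgtgagcgatg
Btg2 EGR, chr1:134079268-134079296: cgcctgggagGCGCGGGCGagctggcggg
Zfp36l1 AP-1, chr12:80113126-80113152: accgcatggcTGATTCAacctcagtgt
Rc3h1 AP-1, chr1:160906268-160906294: ttggggccggTGACTCAgagctttcct
Ier3 NF-kB, chr17:35821611-35821640: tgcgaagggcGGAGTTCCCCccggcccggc

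The Rc3h1 and Ier3 windows are on the plus strand and the others on the minus strand. Zfp36 and Btg2 each held 2 of the motifs, and the windows of Zc3h12a and Ier5 held none of the 6. No 2 of these matches overlap. Both Zfp36 windows lie in the 5′ UTR of a longer Zfp36 transcript annotated in GENCODE M21.

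The values are FPKM, fragments scaled to transcript length and to the mapped fragments of the library, as the authors estimated them per gene; they are per length, so levels can be set side by side between genes. Their sum over all genes was 557214 to 571784 in the stimulated libraries, 674961 in the unstimulated wild-type library and 595500 in the unstimulated library labelled knockout. The table holds no read counts, so the depth behind each value is unknown. Nr4a1, the targeted gene, was at 126 FPKM in both unstimulated libraries. After anti-IgM it reached 808 ± 47.2 (SD, n = 4) in wild type against 702.1 ± 44.6 (SD, n = 4) with the knockout label, and the groups overlapped. It gave no check of the labels, so directions are given between labels. Cd79a and Cd79b, which encode the signalling chains of the B cell antigen receptor, were high in every library: Cd79a was at 1112 FPKM in unstimulated wild type, at 1229 in the unstimulated library labelled knockout and at 469 to 529 after anti-IgM. Cd79b was at 1595 and 1385 FPKM unstimulated, and after anti-IgM at 365 to 390 FPKM in wild type and, called lower, at 293 to 326 with the knockout label (-0.32, limma adjusted p = 0.00054). Ms4a1 (555 and 405 FPKM unstimulated, 215 to 236 stimulated), Pax5 (135 and 132, then 53.2 to 60.6) and Cd22 (179.76 and 188, then 41.7 to 53.2) were detected in every library too. The 8 T cell markers summed to 46.0 to 50.1 FPKM in stimulated wild type and 66.1 to 69.0 in the libraries labelled knockout, nearly all of it Lck, with Cd3d, Cd3e, Cd3g and Cd4 at or below 0.33 FPKM everywhere. The plasma cell list, led by the activation gene Irf4, summed to 1046 to 1111 and 1132 to 1191 FPKM, and the NK cell list to 1.29 to 2.25 over all libraries. The myeloid list summed to 30.2 to 150.5 FPKM, high in stimulated wild-type library B, in stimulated libraries A and B labelled knockout and in the unstimulated wild-type (82.7) and knockout-labelled (97.8) libraries, on which the stimulation changes rest, and the erythroid list was at 62.6 FPKM in unstimulated wild type against 18.4 in the library labelled knockout. The part of these markers in the differences below was not tested.

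Log2 changes are on the log2(FPKM + 1) scale and come from limma fits to the 10225 genes averaging 1 FPKM or more, with p-values adjusted by the Benjamini-Hochberg method over all of them; all 9 genes passed that filter. The stimulation fit took all 10 libraries and allowed for genotype. Its p-values assume that the unstimulated libraries, 1 per genotype, vary like the stimulated ones. A gene was called where its adjusted p was under 0.05 and its log2 change at least 1 in size. By that rule Btg2 alone was called among the 9, as lower, where 12.4% of all tested genes were called lower and 7.94% higher. By the adjusted p alone 5 of the 9 were higher (31.2% of all genes) and 2 lower (47.7%). Over all tested genes the median change was -0.17 as deposited, -0.03 after rescaling each library to the same sum and 0.03 with median-of-ratios scaling, a shift that lies under every change below. In bulk RNA, fewer cells of a kind and less of an mRNA per cell cannot be told apart. The 9 genes spanned 2 orders of magnitude: Zfp36l1 was the highest in every library, and Ier3 the lowest.

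**Figure D1:**
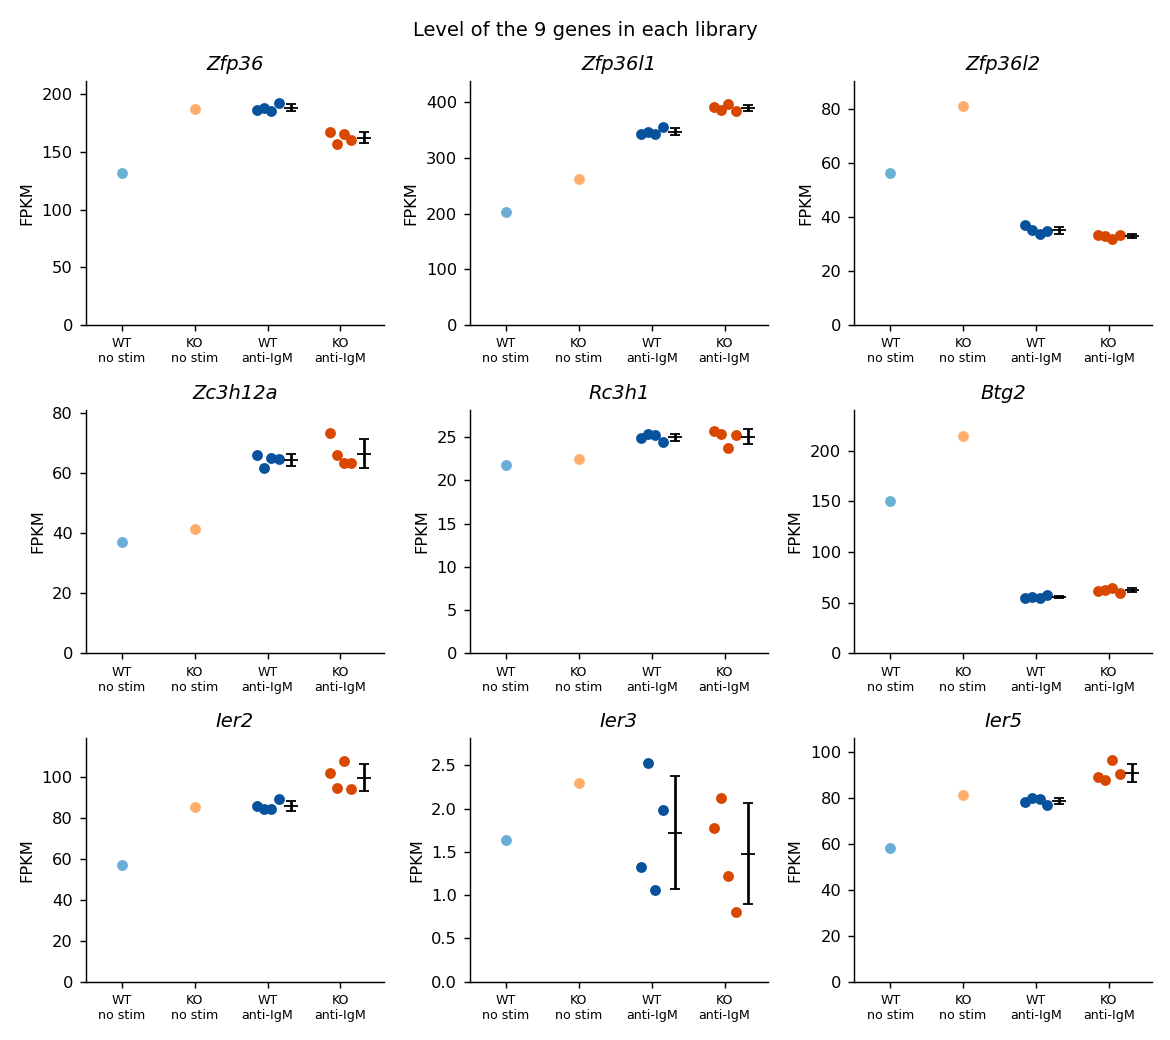
Level of each of the 9 genes in FPKM (linear axes from 0) in the unstimulated libraries (1 per genotype) and after anti-IgM (4 per genotype); points are libraries, and the bar beside each stimulated group is the mean ± SD. Btg2 and Zfp36l2 sit lower after anti-IgM in both genotypes and Zfp36l1 and Zc3h12a higher, while Zfp36 after anti-IgM sits lower in the 4 libraries labelled knockout than in the 4 wild-type ones.

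The 3 AU-binding genes moved in different directions after anti-IgM, and Zfp36 was the only one of the 9 called lower in the knockout-labelled cells. Zfp36 (chromosome 7, 28376784 to 28380253, minus strand, GRCm38) stood, unstimulated, at 131 FPKM in wild type and at 187 in the library labelled knockout. After anti-IgM it was at 187, 188, 186 and 193 FPKM in wild-type libraries A to D. The knockout-labelled A to D were at 167, 157, 165 and 160.0 FPKM, and the highest of them was below the lowest wild-type library. The log2 difference between the stimulated genotypes was -0.21 (SE 0.026, limma adjusted p = 0.000804), with means of 188 ± 3.16 and 162 ± 4.76 FPKM (SD, n = 4), and the two-sided exact permutation p over 70 labellings was 0.0286, the smallest that 4 against 4 libraries can give. The call held in each of the 18 other settings tried.

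Zfp36 responded less in the libraries labelled knockout than in wild type. Most of that difference comes from the unstimulated pair, 1 library against 1, which differed by 0.51 on the log2 scale. Against the unstimulated library of the same genotype, the stimulated mean lay 0.52 above on the log2 scale in wild type, and the difference was -0.20 with the knockout label. The sign of the latter depended on the scaling: median-of-ratios scaling gave 0.06 and the fit with GC and length trends removed -0.02, against 0.72 and 0.49 in wild type. The fitted difference between these responses was -0.72 (SE 0.058, limma adjusted p = 0.000498), which assumes that the lone unstimulated libraries vary like the stimulated ones. Pooled over genotypes the change with stimulation was 0.16 (SE 0.12, limma adjusted p = 0.234), so no rise or fall was called. That pooled value rests on which unstimulated library is used: it was -0.20 without the wild-type one and 0.52 without the one labelled knockout. It also moved with the processing, to -0.09 after quantile normalization and 0.32 after rescaling to the same sum. Median-of-ratios scaling gave 0.39 (limma adjusted p = 0.00665), and removal of GC and length trends 0.23 (limma adjusted p = 0.0236).

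Zfp36l1 (chromosome 12, 80107754 to 80113013, minus strand) rose with stimulation in both genotypes and, opposite to Zfp36, was higher in the knockout-labelled cells. It stood at 203 and 262 FPKM in the unstimulated wild-type and knockout-labelled libraries. After anti-IgM it was at 343, 347, 343 and 356 FPKM in wild type (A to D) and at 392, 387, 396 and 385 with the knockout label, with no overlap. The pooled rise was 0.67 (SE 0.046, limma adjusted p = 1.15e-07), and the genotype difference after stimulation was 0.17 (SE 0.021, limma adjusted p = 0.00104), or 0.11 after quantile normalization.

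Zfp36l2 (chromosome 17, 84183931 to 84187947, minus strand) fell. It went from 56.3 FPKM to 36.9, 35.3, 33.7 and 34.7 in wild-type libraries A to D, and from 81.4 FPKM to 33.4, 33.1, 31.9 and 33.4 in the libraries labelled knockout. The pooled change was -0.97 (SE 0.10, limma adjusted p = 4.47e-06), just short of the size required for a call, and it passed that size after quantile normalization (-1.08) and without the unstimulated wild-type library (-1.28). The stimulated groups did not overlap (two-sided exact permutation p = 0.0286), but the difference of -0.09 (SE 0.033) did not pass the limma test (adjusted p = 0.145). Zfp36l2 and Zfp36l1 encode proteins known to restrain the cell cycle of developing B cells.

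The make-up of the family does not depend on the scaling of a library. The 3 shares sum to the whole, so a lower share of 1 gene raises the others, and their opposite directions are no separate evidence. Of the summed FPKM of the 3 genes, Zfp36 made up 33.6% and 35.3% in the unstimulated wild-type and knockout-labelled libraries. After anti-IgM it made up 33.0% ± 0.059 in wild type and 27.7% ± 0.43 with the knockout label (SD, n = 4), where it ranged from 27.2% to 28.3%. The share of Zfp36l1 went from 51.9% to 60.9% ± 0.21 in wild type and from 49.4% to 66.6% ± 0.40 with the knockout label (SD, n = 4), again without overlap. Zfp36l2 went from 14.4% and 15.3% to 6.16% ± 0.26 and 5.63% ± 0.19 (SD, n = 4). The sum of the 3 levels overlapped between the stimulated genotypes, at 571 ± 9.03 FPKM in wild type and 585 ± 8.94 FPKM with the knockout label (SD, n = 4).

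**Figure D2:**
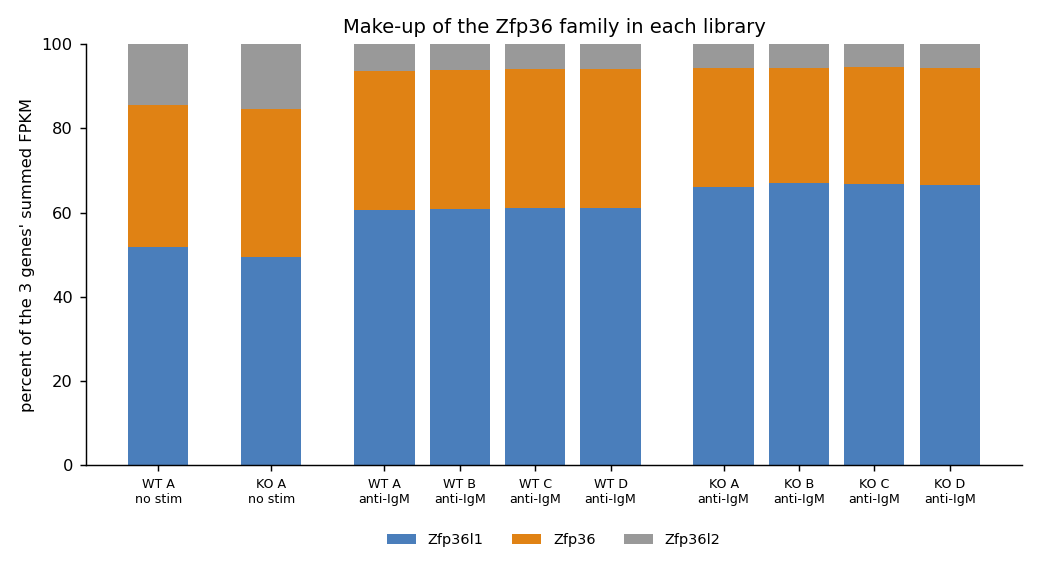
Share of Zfp36l1, Zfp36 and Zfp36l2 in the summed FPKM of the 3 genes, in percent, 1 bar per library. The Zfp36 segment is near 33% in stimulated wild type and 28% in the stimulated libraries labelled knockout, and the Zfp36l2 segment is larger in both unstimulated libraries.

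The genes acting on stem-loops rose with stimulation and did not separate the genotypes. Zc3h12a (chromosome 4, 125118423 to 125127840, minus strand) stood at 37.1 and 41.2 FPKM in the unstimulated wild-type and knockout-labelled libraries. After anti-IgM it was at 65.9, 61.6, 65.0 and 64.7 FPKM in wild type (A to D) and at 73.3, 65.9, 63.4 and 63.2 with the knockout label. The knockout-labelled library A is the highest, and the groups overlap. The rise was 0.72 (SE 0.057, limma adjusted p = 3.57e-07), and the genotype difference after stimulation was 0.04 (SE 0.047, limma adjusted p = 0.642; two-sided exact permutation p = 0.514).

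Rc3h1 (chromosome 1, 160906418 to 160974978, plus strand) varied least over the 10 libraries. It was at 21.7 and 22.4 FPKM unstimulated, at 24.4 to 25.3 FPKM in the stimulated wild-type libraries and at 23.8 to 25.8 FPKM with the knockout label. The rise of 0.17 (SE 0.042, limma adjusted p = 0.00286) was small, and it stayed positive in each setting tried, between 0.15 and 0.40. The genotype difference was 0.003 (SE 0.032, limma adjusted p = 0.974; two-sided exact permutation p = 0.971).

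Btg2 (chromosome 1, 134075170 to 134079120, minus strand) had the largest change of the 9. It fell from 149.98 FPKM to 55.1, 55.3, 54.4 and 57.1 FPKM in wild-type libraries A to D, that is to 37.0% of the unstimulated level. In the libraries labelled knockout it fell from 215 FPKM to 61.7, 62.6, 64.9 and 59.99 FPKM, to 29.0%. The pooled change was -1.60 (SE 0.066, limma adjusted p = 2.04e-09), called in each of 19 other settings with values from -1.80 to -1.36. After stimulation all 4 knockout-labelled libraries were above all 4 wild-type ones, with a difference of 0.16 (SE 0.030, limma adjusted p = 0.00702). Before stimulation Btg2 was second only to Zfp36l1 among the 9, and after it Btg2 was below Ier2 and Ier5 in every library. The 250 bases before its RefSeq start hold both motifs printed above, within chr1:134079156-134079405 (minus strand):
Btg2 upstream: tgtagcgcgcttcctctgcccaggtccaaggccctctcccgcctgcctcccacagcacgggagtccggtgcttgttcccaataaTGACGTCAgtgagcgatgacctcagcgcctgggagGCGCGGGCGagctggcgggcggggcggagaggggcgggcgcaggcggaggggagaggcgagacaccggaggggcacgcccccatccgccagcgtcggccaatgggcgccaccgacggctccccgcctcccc

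Ier2 and Ier5, which encode related nuclear proteins, rose modestly and were higher in the knockout-labelled cells, both before and after stimulation. Ier2 (chromosome 8, 84661331 to 84662852, minus strand) was at 57.1 and 85.2 FPKM unstimulated. After anti-IgM it was at 85.6, 84.4, 84.3 and 89.4 FPKM in wild type (A to D) and at 102, 94.6, 108 and 94.1 with the knockout label. The unstimulated knockout-labelled library thus stood at the level of stimulated wild type. The rise was 0.40 (SE 0.075, limma adjusted p = 0.000477) and the genotype difference after stimulation 0.21 (SE 0.044, limma adjusted p = 0.0168). The rise was 0.22 (adjusted p = 0.0164) without the unstimulated wild-type library, 0.27 after quantile normalization and 0.63 with median-of-ratios scaling. The genotype call was lost in 3 of 18 other settings, with no filter on low values (adjusted p = 0.0534), without wild-type library B (0.0523) and without knockout-labelled library A (0.051).

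Ier5 (chromosome 1, 155096361 to 155099636, minus strand) was at 57.99 and 81.1 FPKM unstimulated. After anti-IgM it was at 78.1, 79.9, 79.6 and 77.0 FPKM in wild type and at 89, 87.7, 96.3 and 90.2 FPKM in the libraries labelled knockout, without overlap. The rise was 0.30 (SE 0.058, limma adjusted p = 0.000613) and the genotype difference 0.20 (SE 0.032, limma adjusted p = 0.0032). The rise was 0.16 without the unstimulated wild-type library (adjusted p = 0.0147) and after quantile normalization, 0.46 after rescaling to the same sum and 0.53 with median-of-ratios scaling. Ier2 and Ier5 had the most alike profiles among the 9, with a root mean square distance of 0.066 on the log2 scale over the 10 libraries after each was centred on its own mean.

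Ier3 (chromosome 17, 35821684 to 35822923, plus strand), a regulator of cell survival, was close to the filter. It was at 1.64 and 2.3 FPKM unstimulated, at 1.33, 2.52, 1.06 and 1.98 FPKM in wild type after anti-IgM (A to D) and at 1.78, 2.12, 1.22 and 0.8 with the knockout label. The libraries of a genotype spread over the whole range. Neither the stimulation change of -0.22 (SE 0.23, limma adjusted p = 0.405) nor the genotype difference of -0.13 (SE 0.21, limma adjusted p = 0.766) passed the test, and its SE was about as large as the genotype differences called in the other genes.

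Counted together after stimulation, 4 of the 9 genes were called higher in the libraries labelled knockout (Zfp36l1, Btg2, Ier2 and Ier5), where 3.91% of all tested genes were, and 1 was called lower (Zfp36), where 5.81% were. In 6 of the 9, Zfp36l2 being the sixth, the 4 and 4 libraries did not overlap, as in 15.5% of all genes. The median genotype difference was -0.02 over all tested genes.

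The unstimulated pair is 1 library against 1 and was described without a test. All 9 genes were higher in the library labelled knockout, by 0.57 for Ier2, 0.52 for Zfp36l2 and Btg2, 0.51 for Zfp36, 0.48 for Ier5, 0.37 for Zfp36l1, 0.32 for Ier3, 0.15 for Zc3h12a and 0.04 for Rc3h1 on the log2 scale. A difference of at least 0.5, a size chosen after the values were seen, was reached by 4 of the 9 and by 4.31% of all tested genes, whose median was 0.07. Differences between these libraries also ran with the base composition of the transcript: their median rose from -0.10 in the quintile of genes lowest in GC content to 0.21 in the highest quintile. After stimulation the medians of these quintiles lay between -0.03 and -0.02. Within its own GC quintile, Btg2 was above 97.2% of genes, Ier2 above 95.5%, Zfp36l2 above 94.8%, Zfp36 above 94.1% and Zc3h12a above 40.1%. With the trends in GC content and length removed, the differences were 0.42 for Btg2, 0.40 for Ier2, 0.32 for Zfp36, 0.29 for Zfp36l2 and -0.09 for Zc3h12a. Whether the remainder reflects the genotype or these libraries cannot be told apart.

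**Figure D3:**
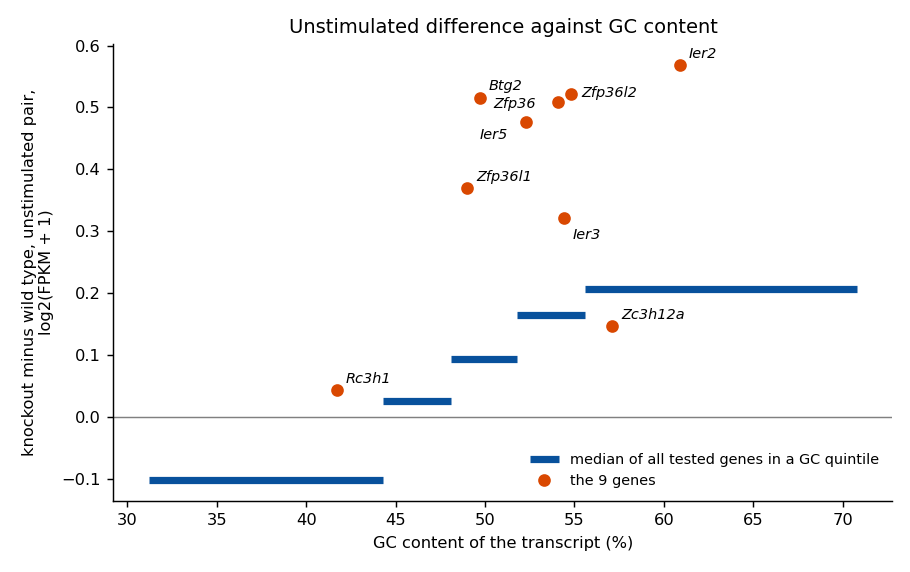
Difference between the unstimulated libraries (knockout minus wild type, log2(FPKM + 1)) against the GC content of the transcript in percent, for the 9 genes (points), with the median of all tested genes in each quintile by GC content (bars spanning the quintile). The bars climb from -0.10 to 0.21, and 8 of the 9 points lie above the bar of their quintile.

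The responses to anti-IgM were then compared between genotypes over the 4 groups, with the lone unstimulated libraries assumed to vary like the stimulated ones. In 6 of the 9 genes the response in the libraries labelled knockout was called below that in wild type, where 14.7% of all tested genes were called below and 4.18% above. Besides Zfp36 these were Zfp36l2 at -0.61 (SE 0.074, limma adjusted p = 0.0023), Ier2 at -0.36 (adjusted p = 0.0343), Btg2 at -0.35 (adjusted p = 0.00705), Ier5 at -0.27 (adjusted p = 0.0272) and Zfp36l1 at -0.20 (adjusted p = 0.0181). For Zfp36l1, Ier2 and Ier5 this was a smaller rise, and for Btg2 and Zfp36l2 a larger fall, from a higher unstimulated level each time. This comparison uses the same 8 stimulated libraries as the genotype comparison and the same unstimulated pair as described above, so it is no separate evidence. Each value is the genotype difference after stimulation minus that of the unstimulated pair. For Zfp36l1, Btg2, Ier2 and Ier5 the difference after stimulation was positive, so the negative values come from the unstimulated pair. For Zfp36 and Zfp36l2 the difference after stimulation was -0.21 and -0.09, and that of the unstimulated pair 0.51 and 0.52. Most of their values therefore comes from that pair too. With the trends in GC content and length removed, a setting chosen after seeing the data, 2 of the 6 were still called, Zfp36 at -0.51 (adjusted p = 0.0123) and Zfp36l2 at -0.36 (adjusted p = 0.0287). These same genes were called in each of the 17 other settings tried. All of those settings kept both unstimulated libraries, so none tests how far unstimulated libraries vary. With median-of-ratios scaling, and without the intensity trend in the variance, 3 of the 9 were called, Btg2 being the other one. Ier2 also lost its call with no filter on low values (adjusted p = 0.0634) and without wild-type library A (adjusted p = 0.0533) or D (adjusted p = 0.0562).

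**Figure D4:**
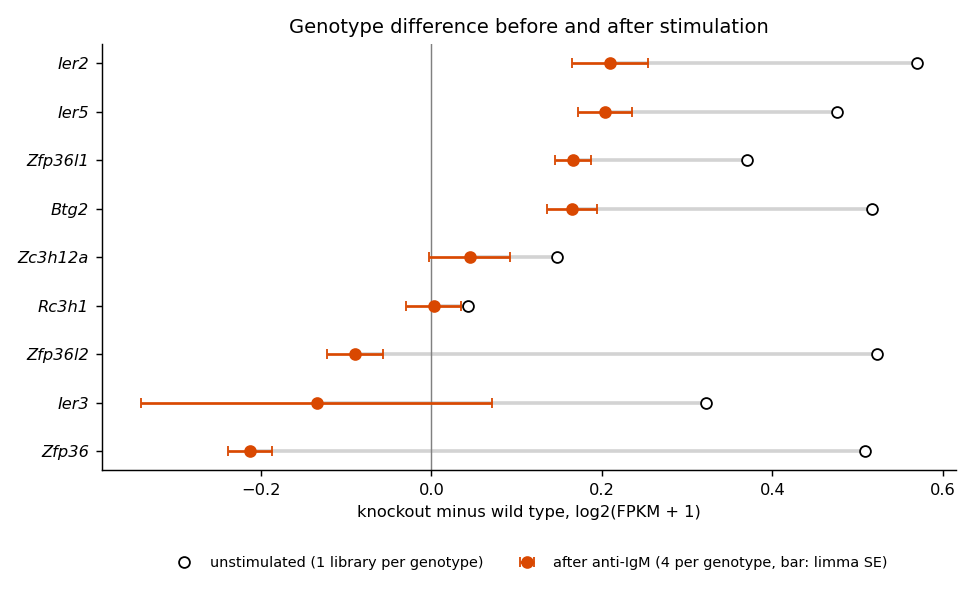
Knockout minus wild type on the log2(FPKM + 1) scale for the 9 genes, unstimulated (open circles, 1 library per genotype, no error) and after anti-IgM (filled circles, 4 per genotype, bars are the limma SE). The open circle lies to the right of the filled one for each gene, and only for Zfp36 does the filled circle lie left of 0 by more than 0.2.

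The rest of the decay machinery is given by counts, beside the 3.91% of all tested genes called higher and 5.81% called lower between genotypes; in lists of this size few or no calls are near that background. Of 14 CCR4-NOT and PAN deadenylase genes, Cnot6l, a catalytic subunit, was called higher in the stimulated libraries labelled knockout (0.19, SE 0.034, limma adjusted p = 0.00769), and none was called with stimulation at the required size, although 5 were higher and 8 lower by adjusted p alone. None of 17 decapping and 5′ decay genes, 16 genes of the RNA exosome and SKI complex, and 14 tested RNA-binding regulators of stability was called between genotypes by limma, and 1 gene in each of these 3 lists had an unadjusted p under 0.05; in other settings at most 1 per list was called. With stimulation the exosome nuclease Dis3 rose by 1.40 (SE 0.048, limma adjusted p = 5.26e-10), the subunits Exosc6 and Exosc2 by 1.21 and 1.03, and the decapping factors Patl1 and Lsm2 by 1.06 and 1.04 on the log2 scale; those of Exosc2, Patl1 and Lsm2 fell short of the required size in 1 or 2 of 19 other settings. Zc3h12c, a paralog of Zc3h12a, rose by 1.45 (SE 0.089, limma adjusted p = 4.81e-08), to 17 ± 1.23 FPKM in wild type and 14.5 ± 1.31 with the knockout label (SD, n = 4). Arid5a, which stabilises mRNAs that Regnase-1 cleaves, fell by 1.44 and Tia1 by 1.30. The median stimulation change was -0.13 for the deadenylase list, 0.03 for decapping, 0.35 for the exosome list and 0.34 for the RNA-binding regulators. The median difference in response, knockout label minus wild type, was -0.07, -0.16, -0.02 and -0.265 in the same order. Over all tested genes it was -0.10, and each of these values rests on the lone unstimulated libraries.

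None of the 4 tested relatives of Btg2 was called lower with stimulation, and 1, Tob1, was lower by adjusted p alone (-0.56, limma adjusted p = 0.00155). Btg3 rose by 1.57 (SE 0.052, limma adjusted p = 4.3e-10), while Btg1, the closest paralog of Btg2, was at 259 and 313 FPKM unstimulated and at 335 ± 2.25 FPKM in stimulated wild type and 359 ± 9.76 with the knockout label (SD, n = 4). Between genotypes 2 of these 4 genes were called higher: Tob2 (0.20, limma adjusted p = 0.0108) and Btg1 (0.10, limma adjusted p = 0.0341), of which Btg1 was called in 8 of 18 other settings. Their median difference in response was -0.14, again resting on the lone unstimulated libraries.

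Of 36 other immediate early genes tested, 19 were called higher with stimulation and none lower (3 by adjusted p alone), where 7.94% and 12.4% of all tested genes were, with a median change of 1.33. On the log2 scale Myc rose by 3.33, Maff by 3.15 and Nr4a3 by 2.83. Between genotypes 10 were called higher (3.91% of all genes), led by Nr4a2 (0.80, limma adjusted p = 4.58e-05), Nr4a3 (0.51) and the AP-1 subunit Fosl2 (0.47). The 5 called lower (5.81% of all genes), as Zfp36 was, were the phosphatase genes Dusp1 (-0.43, limma adjusted p = 0.00614) and Dusp5 (-0.30), Nr4a1 itself (-0.20, called in 7 of 18 other settings), Klf6 (-0.15) and Mcl1 (-0.14), of which Klf6 and Mcl1 are named to complete the count after their values were seen. In the unstimulated pair 34 of the 36 were higher in the library labelled knockout, 9 of them by at least 0.5 (4.31% of all genes). The response was called below wild type for 17 (14.7% of all genes) and above for none (4.18%), also at an unadjusted p under 0.05. With the GC and length trends removed it was called below for 0.

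Known target mRNAs of these proteins were examined next. Of 6 tested ZFP36 targets, Ccl3, Il10 and Tnf were called higher in the stimulated libraries labelled knockout and none was called lower, where 3.91% and 5.81% of all tested genes were. The chemokine gene Ccl3 was at 27.8 and 35.1 FPKM unstimulated, at 86.5 ± 6.16 FPKM in stimulated wild type and at 165 ± 14.3 with the knockout label (SD, n = 4), a difference of 0.92 (SE 0.067, limma adjusted p = 3.98e-05). The response of Ccl3 with the knockout label lay above that in wild type by 0.59, opposite to Zfp36 and resting on the lone unstimulated libraries. Tnf was at 14.8 and 22.6 FPKM unstimulated and differed after stimulation by 0.51 (SE 0.097, limma adjusted p = 0.0103). Il10 was at 1.97 and 5.27 FPKM unstimulated and at 3.15 ± 0.98 and 5.74 ± 1.35 FPKM after stimulation (SD, n = 4). Its difference after stimulation was 0.71 (SE 0.18, limma adjusted p = 0.0369), with overlapping groups and a call in 10 of 17 other settings. For Ccl3, Tnf and Il10 the unstimulated library labelled knockout was already above the wild-type one, 1 library against 1. For Il10 that log2 difference was larger than the one after stimulation. Of 7 tested Regnase-1 or Roquin targets, 4 were called higher with stimulation (Nfkbid 3.09, Rel 1.46, Nfkbiz 1.45 and Tnf 1.04), where 7.94% of all genes were, and 2 were called higher between genotypes, Tnf and Nfkbid (0.33, limma adjusted p = 0.00459), where 3.91% were.

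**Figure D5:**
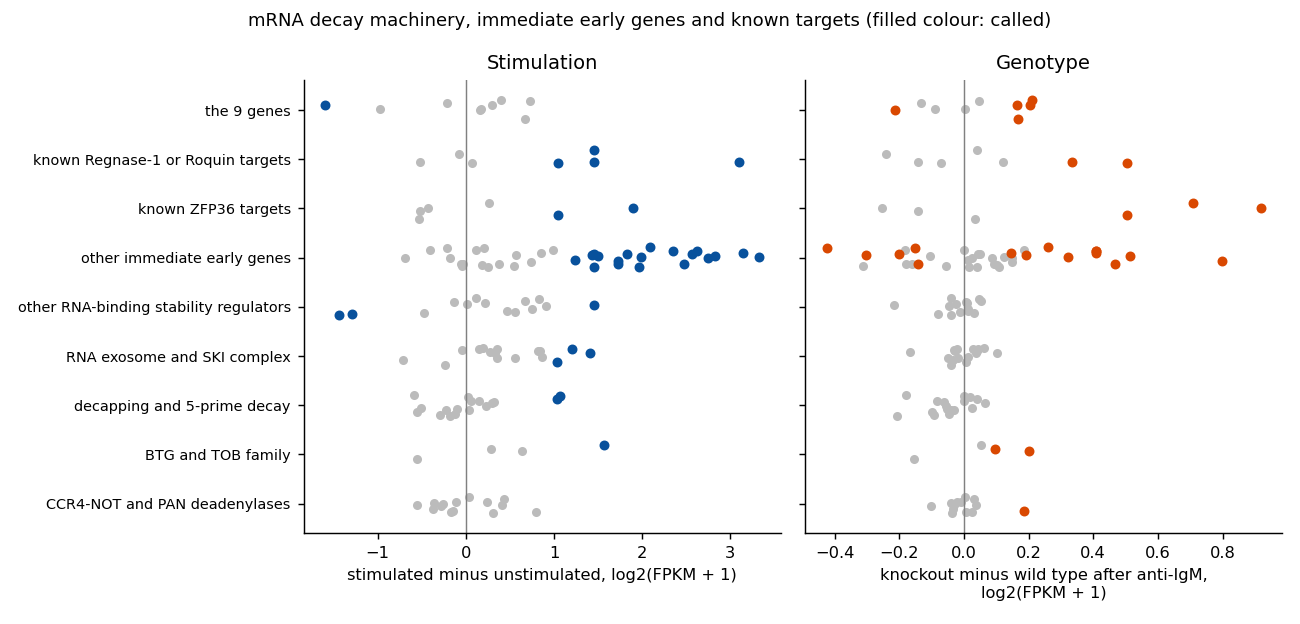
Log2 change with stimulation (left) and log2 difference between genotypes after anti-IgM (right) for every tested gene of the 9 and of the lists of decay machinery, immediate early genes and known targets; each point is a gene and coloured points were called. In the right panel the other immediate early genes hold 10 coloured points above 0 and 5 below, the deadenylases hold 1, and the decapping, exosome and RNA-binding lists hold none.

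The genes whose profiles over the 10 libraries came closest, among 9263 candidates, were Slc2a1 (0.062) and Map4k4 (0.063) for Zfp36, Tut1 (0.042) and Peak1 (0.048) for Zfp36l1, and Klf11 (0.050) and Prmt2 (0.06) for Zfp36l2, the value being the root mean square distance on the log2 scale. Slc2a1, the glucose transporter gene, was at 9.4 and 14.1 FPKM in the unstimulated wild-type and knockout-labelled libraries. Its stimulated means were 13.3 FPKM in wild type and 11.4 FPKM with the knockout label. As for Zfp36, unstimulated wild type was lowest and the stimulated mean with the knockout label next. The unstimulated library labelled knockout was the highest for Slc2a1. For Zfp36 that library and the stimulated wild-type mean were about level, at 187 and 188 FPKM. The closest to Btg2 were E2f2 (0.064) and Prkd2 (0.065), to Ier2 Vasp (0.039) and Tle3 (0.046), and to Ier5 Dennd5a (0.046) and Med14 (0.050). Mrpl3 (0.043) and Nr1d2 (0.050) were closest to Zc3h12a and Cul1 (0.025) and Rnf20 (0.029) to Rc3h1. For Ier3 no profile came closer than that of Tnfaip2 (0.16).

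Reads of neighbouring transcripts are a limit for the AU-binding genes. In GENCODE M21 the exons of Zfp36 share 125 bases with Gm44710, those of Zfp36l1 share 1672 bases with Gm26669 and those of Zfp36l2 share 105 bases with AC132455.1, each on the opposite strand. Whether the counting used strand is not given in the sources used here, so reads of these partners cannot be told apart from those of the 3 genes.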

How the data were processed

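The authors deposited 1 table of FPKM values, with 2 decimals and no counts, for 17658 genes in 10 libraries prepared as stranded mRNA libraries, per the labels' protocols. STAR 2.4, RSEM 1.2.14 and build mm10 are named per the submitters' processing notes; annotation and use of strand are not given in the sources used here. Each column name matched 1 sample.

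Values were transformed as log2(FPKM + 1), and the 10225 genes that averaged 1 FPKM or more were fitted with limma 3.58.1 in R 4.3.3 (lmFit, eBayes with trend, two-sided, Benjamini-Hochberg adjustment over all of them). Stimulation used 10 libraries with genotype as a term, genotype the 8 stimulated libraries, and the difference in response 4 groups. The unstimulated pair was described only. The scripts were tested on simulated data. Exact permutation tests ran over all 70 labellings.

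The 9 genes and all lists were chosen with earlier results of these data known. Named are the 9 genes, at most the 3 largest called rises and falls per list and comparison, and for each of the 9 the 2 genes nearest by profile. Outside that rule, Klf6, Mcl1, Tob1 and, among the Regnase-1 or Roquin targets, Tnf are named to complete a count. Marker lists covered T, NK, myeloid, erythroid and plasma cells; 1 further marker result is not reported here. Alternatives were pseudocounts of 0.1 and 5, no filter, a mean minimum of 5 FPKM, rescaling to the same sum, median-of-ratios scaling, quantile normalization, eBayes without trend, the library letter as a block, each library left out, and, added after seeing the data, removal of GC and length trends (values for 9322 genes, 91.2%). An unstimulated library was left out in the stimulation fit only. Gene models and 3′ UTRs came from GENCODE M21 (GRCm38), upstream sequence from RefSeq (GRCm38.p6).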

Additional observations from a re-analysis of the deposited data

Results flagged for a closer look

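The response to anti-IgM differed between the genotypes as labelled for 6 of the 9 genes, by the test of the difference itself (limma over 4 groups, with the lone unstimulated libraries assumed to vary like the stimulated ones). The response in the libraries labelled knockout minus that in wild type was -0.721 for Zfp36, -0.612 for Zfp36l2, -0.36 for Ier2, -0.352 for Btg2, -0.272 for Ier5 and -0.203 for Zfp36l1 on the log2 scale. Each of these differences rests on 1 unstimulated library per genotype. With GC and length trends removed, the calls of Zfp36 and Zfp36l2 remained and those of Zfp36l1, Btg2, Ier2 and Ier5 were lost (adjusted p = 0.514, 0.109, 0.371 and 0.705 by limma). With median-of-ratios scaling, or without the variance trend, the calls of Zfp36l1, Ier2 and Ier5 were lost. No stimulated library stood apart from the others of its group by Dixon's test in the 18 groups of 4 examined, where chance alone would give about 1 in 20.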

How the results depend on the processing

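The 5 genotype calls among the 9 genes kept their direction in each setting tried, and Ier2 alone lost its call in 3. With the library letter as a replicate block, 4 of the 9 were called higher and 1 lower, and over all genes 329 and 411; the letters did not pair the libraries (correlations of same-lettered deviations from -0.122 to 0.0445), and not every library correlated best with its own letter. Genes called lower between genotypes numbered 377 with median-of-ratios scaling, against 594.

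With stimulation, 534 genes were called higher and 598 lower with a pseudocount of 5, against 812 and 1266, and the number lower was 824 with a mean of at least 5 FPKM, 801 with median-of-ratios scaling and 834 with GC and length trends removed. Of the 9 genes 2 were called lower after quantile normalization, and 1 to 2 with each library left out. Quantile normalization turned the change of Zfp36 to -0.089 and of Ier3 to 0.163. Leaving out each library in turn gave -0.204 to 0.517 for Zfp36 and -0.444 to 0.0129 for Ier3, and genotype differences of -0.258 to 0.00893 for Ier3, -0.0106 to 0.0263 for Rc3h1 and -0.00254 to 0.0677 for Zc3h12a, none of these genotype differences called.

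For the difference in response, 834 genes were called above wild type with no filter, 175 after rescaling to the same sum, 874 after quantile normalization and 117 with GC and length trends removed, against 427; 3455, 849 and 164 were called below after rescaling, with median-of-ratios scaling and with the trends removed, against 1504. Of the 9, 3 were called below with median-of-ratios scaling, 3 without the variance trend and 2 with GC and length trends removed. With those trends removed, Lsm5 turned to -0.0475 and Zc3h12a to 0.154, and the unstimulated difference of Zc3h12a to -0.0919. Rc3h1 turned to 0.0198 under median-of-ratios scaling and 0.0812 by quantile normalization, which also took its unstimulated difference to -0.0524. The causes of these moves were not tested.

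The share of calls that were higher with stimulation was 39.1%, and 50.7% after rescaling to the same sum, 59% under median-of-ratios scaling and 51.8% by quantile normalization. Between genotypes it was 40.2%, 59.7% under median-of-ratios scaling and 52.2% by quantile normalization, and for the difference in response 22.1%, 4.82%, 34.3% and 41.9% in the same order as for stimulation. Read depth is unknown, so no counting error could be set beside a value, and the unstimulated state rests on 1 library per genotype.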
